A study of Aspergillus nidulans FGSC A4 with 21 samples.

Results

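Around the spore gene SpoC1-C1C, near one end of chromosome III of *Aspergillus nidulans*, a run of genes had more transcript in hyphae exposed to benzo[*a*]pyrene (BaP) than in hyphae that received only the solvent, dimethyl sulfoxide (DMSO). The stretch covers positions 12331 to 42183 as the deposited tables give them, and its 9 genes are AN11461, AN10630, AN5088, AN5087, SpoC1-C1C (AN10628), AN10629, AN10626, AN10631 and AN5083. They were selected on their 48 h values, as a run of listed genes that were higher with BaP at that time, so these values are given as a description without a test. They are 9 of the 2403 genes that appear in at least 1 of the 3 deposited tables. The table for 6 h lists 3 of them among 703 genes, the table for 24 h lists 6 among 1503, and the table for 48 h lists all 9 among 1529. Each table holds only genes that the authors kept as differentially expressed at that time, so a missing gene has no value here.

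BaP is a polycyclic aromatic hydrocarbon with fused rings, and the study asked how the fungus responds to it and breaks it down. All cultures were of the wild-type strain FGSC A4. Spores were grown for 18 h in minimal medium with 1% glucose, and the hyphae were moved to medium with 0.1% glucose that held either 200 μM BaP in DMSO or DMSO alone. Hyphae were collected at 6, 24 and 48 h from 3 cultures per treatment and time. The 18 libraries were made from polyadenylated RNA and keep the strand.

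SpoC1 is a cluster of neighboring genes in *A. nidulans* known for RNAs that accumulate in conidia, the asexual spores, and hardly in vegetative hyphae. Its genes are known to depend on their place in the chromosome, because a spore gene moved elsewhere can lose its restriction to spores. Conidium formation in this fungus runs through the regulators BrlA, AbaA and WetA, and starvation for carbon is one of the conditions that can start it.

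The values are read as RPKM, reads scaled to gene length and library size. Library sizes recovered from the values ran from 5.97 to 13.7 M reads (mega-reads) with a median of 9.54 M. The study reports a larger number of reads for each sample. The search for sizes ended below that number and kept the smallest size that fitted. Why these figures differ was not tested, and the sizes and the read counts drawn from them carry this limit. The BaP libraries were all smaller than the DMSO libraries at 6 h (9.57 to 11.0 M, against 11.7 to 13.7 M) and at 48 h (5.97 to 7.26 M, against 8.40 to 9.88 M), which cannot be told apart from the treatment. At 24 and 48 h a single DMSO library stood apart. D26 at 24 h and D33 at 48 h, named as the tables name them, were the smallest DMSO libraries of their time (9.18 and 8.40 M reads). D26 was the highest DMSO library for 79.8% of the 748 genes listed as higher with BaP at 24 h, and D33 for 83.3% of the 756 such genes at 48 h. The log2 fold changes of the 9 genes at 24 and 48 h are therefore given with and without them, and those of other genes only in part. These libraries were singled out after their values had been seen.

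On the chromosome, 7 of the 9 genes lie on the minus strand, and AN5087 and AN5083 lie on the plus strand. By gene order in RefSeq (assembly ASM1142v1), 13 genes lie from AN11461 to AN5083, and 10 of these are in at least 1 table. AN5089, AN11460 and AN5086 are in none. AN5090, a predicted ADP ribosylation factor at 13036 to 13918, lies between AN11461 and AN10630 but is listed only at 6 h and is not counted among the 9. At 48 h the genes at the ends of the stretch, AN11461 and AN5083, had log2 fold changes of 1.64 and 2.61. The next listed genes beyond AN5083, AN10625 and AN10627, had 0.89 and 1.13, and toward the chromosome end no further gene was listed at 48 h. The smallest log2 fold change of the 9 was that of AN10630, at 1.03. Between AN5083 and AN10625 lie 3 genes that no table lists.

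**Figure D1:**
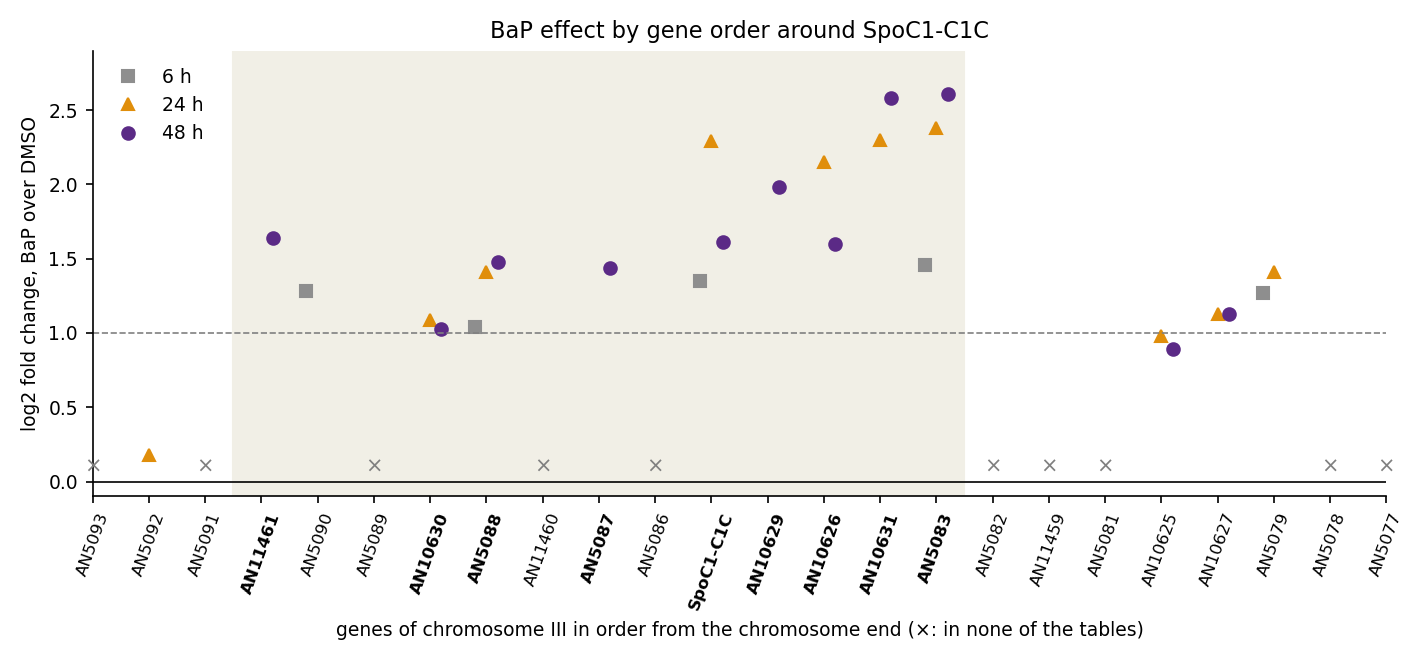
Log2 fold change of BaP over DMSO (vertical axis, on the log2(RPKM + 1) scale) for the genes at the end of chromosome III in their order (horizontal axis), with squares for 6 h, triangles for 24 h and circles for 48 h. Shading and bold names mark the stretch and its 9 genes, the dashed line is a log2 fold change of 1, and crosses mark genes in none of the tables. The highest points of 24 and 48 h, at 2.38 and 2.61, belong to AN5083 at the right end of the stretch. Within the stretch, AN5088 at 6 h and AN10630 at 24 and 48 h lie closest to the dashed line.

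SpoC1-C1C, at 29490 to 30992, encodes a conidium-specific RNA of unknown function and is 1 of 3 genes of the stretch with values at all 3 times. At 6 h its level was 28.8, 30.5 and 21.2 RPKM with BaP, against 9.26, 10.3 and 9.79 RPKM with DMSO. At 24 h it was 74.6, 54.6 and 53.2 RPKM with BaP, against 9.69, 37.2 and 3.81 RPKM with DMSO. At 48 h it was 56.0, 74.0 and 38.7 RPKM with BaP, against 9.42, 14.7 and 35.6 RPKM with DMSO. Every BaP library lay above every DMSO library of its time, but at 48 h the lowest BaP value was close to the highest DMSO value, that of D33. The transcript was thus measured in solvent-treated hyphae as well, at 3.81 RPKM or more in each of the 9 DMSO libraries. In such bulk samples, fewer cells of a type and less RNA per cell cannot be told apart.

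At 6 h, 3 of the 9 genes were listed and all 3 were higher with BaP. AN5083, at 39075 to 42183, is predicted to move protons at the cost of ATP. Its level was 60.2, 63.3 and 55.0 RPKM with BaP, against 18.7, 24.7 and 20.1 RPKM with DMSO. AN5088, at 17664 to 22414, is a putative potassium-transporting ATPase. Its level was 44.8, 49.6 and 35.0 RPKM with BaP, against 18.5, 23.2 and 19.4 RPKM with DMSO. For both pump genes the groups were well separated, with the lowest BaP library above the highest DMSO library by more than the range of the DMSO libraries.

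In the limma fit over the 703 listed genes, with Benjamini-Hochberg adjustment, the log2 fold change at 6 h was 1.46 (SE 0.16, adjusted p = 3.6e-07) for AN5083. In the same fit it was 1.35 (SE 0.17, adjusted p = 1.13e-06) for SpoC1-C1C and 1.04 (SE 0.17, adjusted p = 1.96e-05) for AN5088. A gene is called here when its log2 fold change on the log2(RPKM + 1) scale is over 1 or under -1 and its adjusted p is under 0.05. The study set the same limits on the log2 fold change and on a p-value, on its own scale. All 3 were called higher, where 63.6% of all genes listed at 6 h were called higher. The authors had kept the listed genes as differentially expressed in these same libraries, so these calls give no independent evidence. The groups of the 3 genes did not overlap in 3 of 3 cases, where this held for 75.8% of the listed genes. Their median log2 fold change of 1.35 lay near the 1.30 of the 535 listed genes that were higher with BaP. The call for AN5088 was at the limit, since its log2 fold change was 0.93 without library B17, 0.98 without D19 and 0.94 with library weights.

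At 24 h, 6 of the 9 genes were listed. AN10631, at 37832 to 38659, whose orthologs are found in cytosol and nucleus, was the most abundant of the stretch per length. Its level was 1806, 1017 and 1106 RPKM with BaP, against 278, 885 and 68.7 RPKM with DMSO. AN5083 had 289, 180 and 203 RPKM with BaP, against 35.7, 132 and 14.6 RPKM with DMSO. AN10626, at 35509 to 37465, whose orthologs are intracellular proteins, had 267, 192 and 210 RPKM with BaP, against 44.0, 148 and 17.4 RPKM with DMSO. For these 3 genes at the right end of the stretch the groups did not overlap, but D26 came close to the lowest BaP library. AN5088 had 97.6, 97.5 and 92.9 RPKM with BaP, against 32.5, 66.0 and 20.7 RPKM with DMSO, so that its BaP libraries varied far less than its DMSO libraries. AN10630, at 16181 to 17145 and predicted to encode a membrane protein, was at the low end with 4.26, 2.65 and 4.67 RPKM with BaP, against 0.683, 2.72 and 0.785 RPKM with DMSO. It was the only listed gene of the stretch whose groups overlapped at 24 h, because D26 lay above library B23. These levels came from 34, 21 and 32 recovered reads with BaP and 6, 21 and 8 with DMSO, while every other member had at least 68 reads in each library.

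All 6 genes were called higher at 24 h in the limma fit over 1503 genes with Benjamini-Hochberg adjustment. Of all listed genes, 41.5% were called higher. The authors had kept the listed genes as differentially expressed in these same libraries, so these calls give no independent evidence. AN5083 had a log2 fold change of 2.38 (SE 0.71, adjusted p = 0.0192), AN10631 2.30 (SE 0.82, adjusted p = 0.0318) and SpoC1-C1C 2.29 (SE 0.68, adjusted p = 0.0192). AN10626 had 2.15 (SE 0.68, adjusted p = 0.0226), AN5088 1.41 (SE 0.41, adjusted p = 0.0177) and AN10630 1.09 (SE 0.37, adjusted p = 0.0267). The groups did not overlap for 5 of the 6, where 45.0% of the listed genes were higher without overlap. The median over the 6 genes was 2.22, against 1.26 over the 748 listed genes that were higher with BaP. By size of the log2 fold change, AN5083 stood at place 26, AN10631 at 34, SpoC1-C1C at 35 and AN10626 at 48 of the 1503 listed genes, while AN5088 was at 277 and AN10630 at 534.

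The 24 h calls changed with the libraries in the fit. Without D26 all 6 genes were called, and the log2 fold changes were 3.20 for AN5083, 3.18 for AN10631, 3.09 for SpoC1-C1C, 2.95 for AN10626, 1.85 for AN5088 and 1.46 for AN10630. Without D27, the DMSO library with the lowest values, the log2 fold changes were 1.65 for AN5083, 1.60 for SpoC1-C1C, 1.44 for AN10626, 1.35 for AN10631, 1.03 for AN5088 and 0.93 for AN10630, and all but AN10630 were called. Without B23 5 were called, and AN10631 had an adjusted p of 0.0665 in limma. Without B22, B24 or D25 none of the 6 passed the adjusted threshold in limma, although 4 of them had an unadjusted p under 0.05 in each of these fits. The log2 fold changes stayed close to those with all libraries, at 2.18, 2.43 and 2.27 for AN5083 without B22, B24 and D25, and at 2.13, 2.37 and 2.17 for SpoC1-C1C. With the adjustment carried over all RefSeq genes in place of the listed ones, a choice made after the data had been seen, none of the 6 passed at 24 h (adjusted p from 0.124 to 0.222 in limma, all 6 with an unadjusted p under 0.05) and all 3 passed at 6 h. An exact permutation test of 3 against 3 libraries cannot give a p below 0.1.

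**Figure D2:**
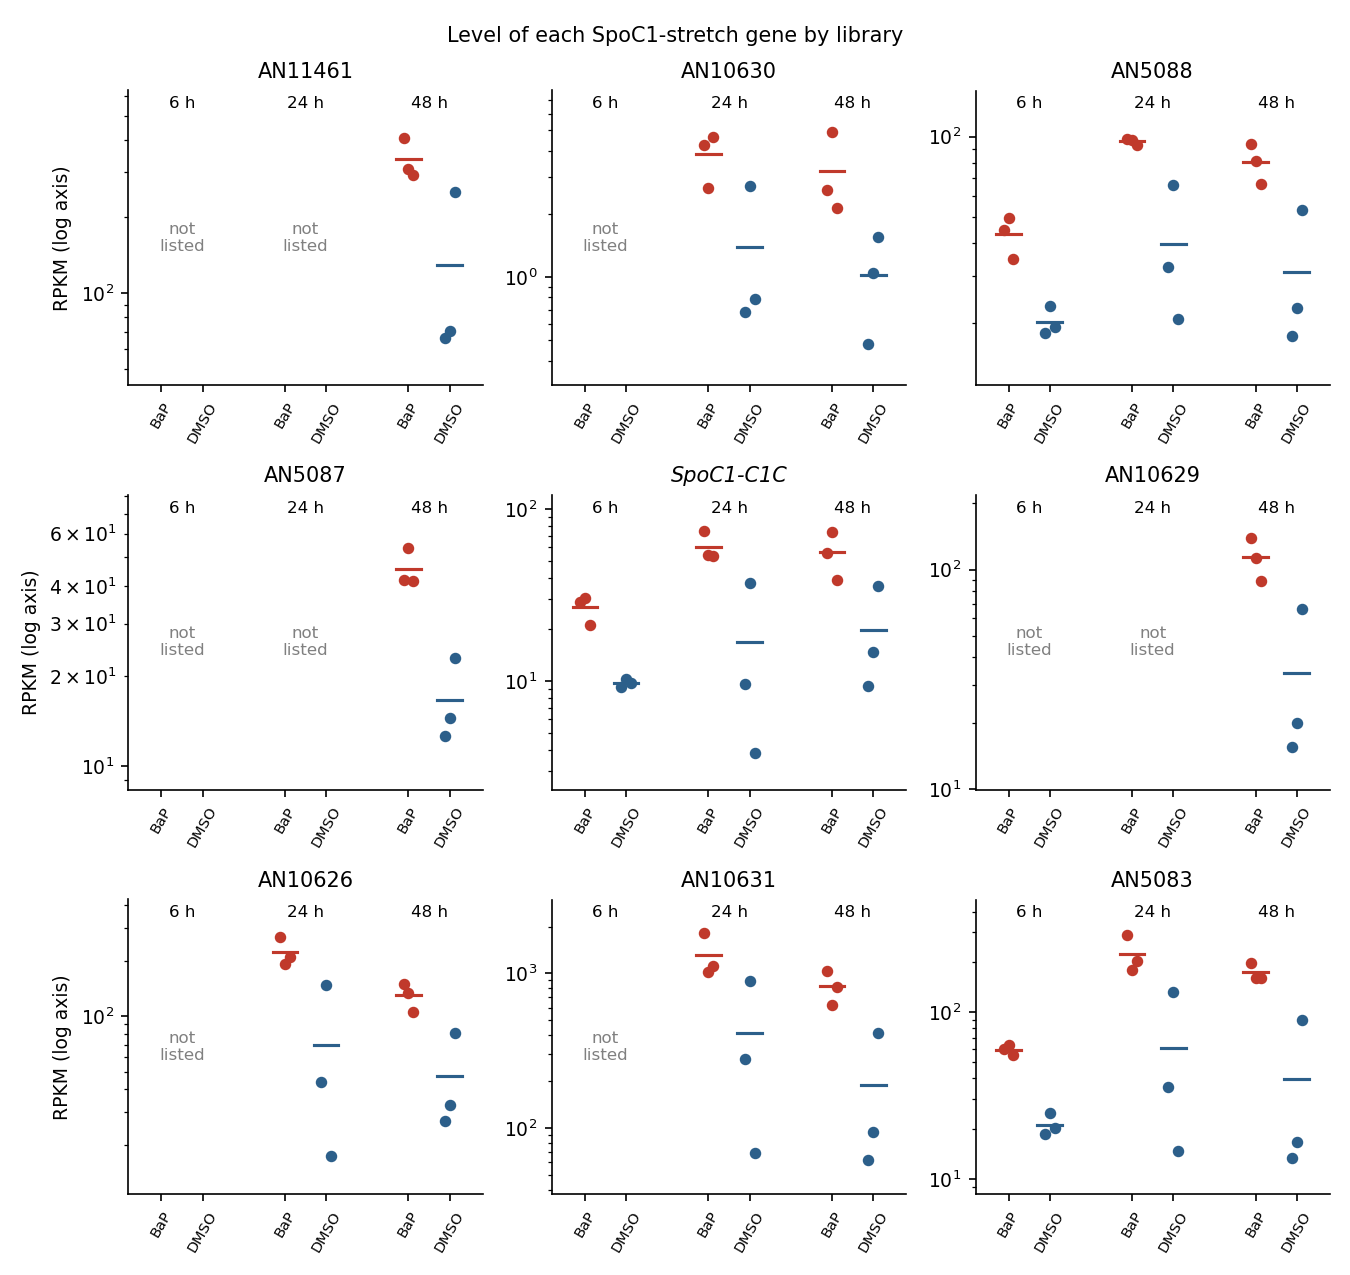
RPKM of each of the 9 genes in each library (vertical log axes), with BaP in red to the left of DMSO in blue at 6, 24 and 48 h, points for libraries and bars for the means of 3. The DMSO libraries at 24 and 48 h spread widely, with D26 and D33 on top, while at 6 h both groups are tight. AN10630 stays below 5 RPKM throughout.

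At 48 h all 9 genes were listed, and the values that follow describe how they were chosen. AN10631 had 1032, 627 and 821 RPKM with BaP, against 62.1, 94.6 and 414 RPKM with DMSO, a log2 fold change of 2.58. AN5083 had 198, 161 and 159 RPKM with BaP, against 13.3, 16.6 and 89.9 RPKM with DMSO, a log2 fold change of 2.61. These adjacent genes again headed the stretch, at places 31 and 26 of the 1529 listed genes. AN10629, at 31167 to 32699 and with a predicted part in lipid metabolism, lies 174 bases from SpoC1-C1C and had 140, 112 and 88.9 RPKM with BaP, against 15.6, 19.98 and 66.5 RPKM with DMSO. Its log2 fold change was 1.98, next to 1.61 for SpoC1-C1C. AN10626 had 150, 134 and 105 RPKM with BaP, against 27.1, 32.9 and 81.3 RPKM with DMSO. Its log2 fold change of 1.60 was close to that of SpoC1-C1C.

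The 4 genes nearer the chromosome end had log2 fold changes of 1.03 to 1.64 at 48 h. AN11461, at 12331 to 12658, is annotated as a possible pseudogene, yet it had 410, 308 and 291 RPKM with BaP, against 66.4, 71.0 and 250 RPKM with DMSO. Its log2 fold change was 1.64, and in D33 its level was within reach of the BaP libraries. AN5088 had 93.6, 81.1 and 66.7 RPKM with BaP, against 17.9, 22.8 and 53.1 RPKM with DMSO, a log2 fold change of 1.48. AN5087, at 25460 to 27651, is described in the tables only by its orthologs and had 41.9, 53.7 and 41.6 RPKM with BaP, against 12.6, 14.5 and 22.9 RPKM with DMSO. Its log2 fold change was 1.44, and its value in D33 stayed well below the BaP libraries. AN10630 had 2.59, 4.92 and 2.13 RPKM with BaP, against 0.482, 1.05 and 1.56 RPKM with DMSO, from 13, 28 and 13 recovered reads with BaP and 4, 8 and 11 with DMSO. Its log2 fold change of 1.03 depends on the 1 RPKM added before taking logs and was 1.59 with 0.1 added.

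All 9 genes had a log2 fold change over 1 at 48 h and non-overlapping groups. Among all listed genes 40.9% were over that limit and 49.2% were higher without overlap, and since the same contrast chose the members nothing is read from these counts. The median over the 9 was 1.61 (range 1.03 to 2.61), against 1.34 over the 756 listed genes that were higher with BaP. Without D33 the median was 2.11, with 3.45 for AN5083, 3.38 for AN10631, 2.59 for AN10629, 2.26 for AN11461, 2.11 for SpoC1-C1C, 2.07 for AN10626, 1.93 for AN5088, 1.68 for AN5087 and 1.22 for AN10630. Without D31, the lowest DMSO library, the median was 1.29.

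The order of the libraries within a treatment was much the same for most of the genes, and in part it was shared by all listed genes that were higher with BaP. At 48 h D33 was the highest DMSO library for all 9 genes and for 83.3% of the listed genes higher with BaP, and D31 was the lowest for all 9 and for 65.9%. B30 was the lowest BaP library for 8 of the 9, and for 37.7% of the listed genes higher with BaP. At 24 h D26 was the highest DMSO library for all 6 listed members and for 79.8% of the listed genes higher with BaP, and D27 was the lowest for 5 of the 6 and for 78.5%. B22 was the highest BaP library for 5 of the 6 and for 80.3%. On the log2 scale, D26 stood 77.7% of the way from the other DMSO libraries to the mean of the BaP libraries in the median over the 6 genes, with a range of 71.1% to 83.8%. Over all listed genes higher with BaP at 24 h the same median was 53.7%. For D33 the median was 71.5% over the 9 genes, with a range of 43.1% for AN5087 to 81.8% for AN11461, and 55.7% over the listed genes higher with BaP at 48 h. Genes of one library are not independent, and whether these shares differ was not tested.

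**Figure D3:**
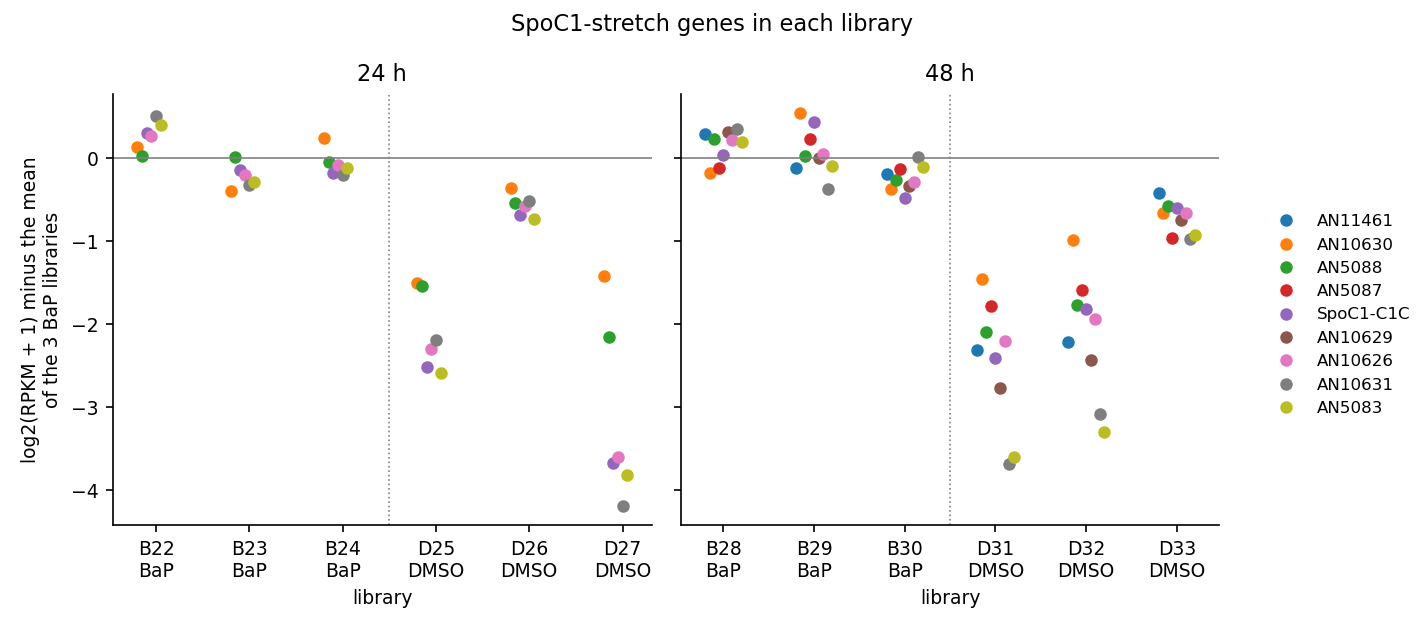
Level of each gene in each library at 24 h (left) and 48 h (right), as log2(RPKM + 1) minus the mean of the 3 BaP libraries of that gene. BaP libraries stand left of the dotted line around 0, DMSO libraries right of it, and colors mark the genes. In D26 and D33 every gene lies less than 1 below the BaP mean, while AN10631 and AN5083 lie more than 3 below it in D27, D31 and D32.

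Ratios within a library set 4 genes against AN5083, which had the largest log2 fold change of the stretch at each time (1.46, 2.38 and 2.61). A lower ratio with BaP therefore restates a smaller fold change. The 48 h ratios also come from the libraries that chose the members. Overlap in other pairs of genes was not examined. AN10631 and AN5083 face away from each other with 415 bases between them. The level of AN10631 was 5.46 to 6.25 times that of AN5083 with BaP at 24 h, against 4.70 to 7.77 times with DMSO. At 48 h it was 3.90 to 5.22 times with BaP, against 4.61 to 5.72 times with DMSO, so that the ranges of this divergent pair overlapped at both times, while AN10631 ranged from 62.1 to 1806 RPKM and AN5083 from 13.3 to 289 RPKM over all their libraries. SpoC1-C1C was at 0.258 to 0.304 of the level of AN5083 with BaP at 24 h, against 0.260 to 0.281 with DMSO. At 48 h the same ratio was 0.243 to 0.461 with BaP, against 0.396 to 0.888 with DMSO. This overlap came from D33 alone, at 0.396, with 0.71 in D31 and 0.888 in D32. At 6 h the ratio was 0.386 to 0.483 with BaP, against 0.418 to 0.496 with DMSO. AN10626 was at 0.924 to 1.07 of the level of AN5083 with BaP at 24 h, against 1.12 to 1.23 with DMSO, and at 0.661 to 0.832 with BaP at 48 h, against 0.904 to 2.04 with DMSO, without overlap at either time. AN5088 was lower relative to AN5083 with BaP at 2 of the 3 times. Its level relative to AN5083 was 0.635 to 0.784 with BaP at 6 h, against 0.937 to 0.989 with DMSO, and 0.418 to 0.505 with BaP at 48 h, against 0.591 to 1.38 with DMSO, without overlap. At 24 h these ranges were 0.338 to 0.543 with BaP, against 0.5 to 1.42 with DMSO, and they overlapped. That overlap came from D26 alone, at 0.5, with 0.909 in D25 and 1.42 in D27.

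Across times the levels can only be set side by side, because each table was made on its own and a shared scale was not tested. SpoC1-C1C averaged 26.9 ± 4.96 RPKM with BaP at 6 h, against 9.79 ± 0.533 RPKM with DMSO (SD, n = 3 each). At 24 h the means were 60.8 ± 12.0 RPKM with BaP, against 16.9 ± 17.8 RPKM with DMSO, and at 48 h 56.2 ± 17.6 RPKM with BaP, against 19.9 ± 13.9 RPKM with DMSO. AN5083 averaged 59.5 ± 4.15 RPKM with BaP at 6 h, against 21.2 ± 3.16 RPKM with DMSO. Its means were 224 ± 57.8 RPKM with BaP at 24 h, against 60.8 ± 62.6 RPKM with DMSO, and 173 ± 21.8 RPKM with BaP at 48 h, against 39.9 ± 43.3 RPKM with DMSO. In both genes the BaP means were higher at 24 and 48 h than at 6 h by more than their SDs, the 24 and 48 h BaP means differed by less than the larger of their SDs, and the DMSO means at the 3 times did not separate beyond their spread.

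Neighbors outside the 9 genes were partly higher too. AN5090, inside the stretch, had 235, 269 and 225 RPKM with BaP at 6 h, against 90.2, 103 and 106 RPKM with DMSO, a log2 fold change of 1.28 (limma with Benjamini-Hochberg adjustment, adjusted p = 1.09e-06). Toward the chromosome end only AN5092, a putative RecQ helicase, was listed, and its log2 fold change of 0.18 at 24 h did not pass (limma with Benjamini-Hochberg adjustment, adjusted p = 0.442). Its means were 0.273 RPKM with BaP and 0.127 RPKM with DMSO, so the added 1 RPKM sets this value, which was 0.75 with 0.1 added and still did not pass (adjusted p = 0.0656 in limma). On the other side, AN10625 at 49608 to 51566 had log2 fold changes of 0.98 at 24 h and 0.89 at 48 h and was not called with all libraries, but was called at 48 h without D33 and at 24 h with 0.1 RPKM added, at 1.04. AN10627 at 51866 to 53538 was called at 24 h with 1.13, but its groups overlapped and its adjusted p in limma was 0.0445 with all libraries and 0.0824 without D26. At 48 h it was called with 1.13. AN5079 at 54588 to 55197 was called at 6 h with 1.27 and at 24 h with 1.41 and was not listed at 48 h. Without D26 it was called at 24 h with 1.87. Genes beyond the stretch were thus called higher as well, AN10627 at 24 and 48 h and AN5079 at 6 and 24 h. Among all listed genes, 63.6% at 6 h, 41.5% at 24 h and 40.9% at 48 h were called higher. Listed genes had been kept as differentially expressed in these same libraries, so nothing is read from the calls of the neighbors.

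Conidial genes elsewhere in the genome were compared as a list of 13 products and 17 regulators. Of the products, 10 were in some table. At 6 h 9 were listed and 8 were called higher by limma, with a median log2 fold change of 1.42, and none was called lower, where 63.6% of all listed genes were called higher and 10.4% lower. Among them were *conJ* and *conF*, genes induced during conidiation, at 1.74 and 1.08, the conidial catalase gene *catA* at 1.70, the hydrophobin gene *rodA* at 1.51 and the spore laccase gene *yA* at 1.46. The others were *cetJ* at 1.42, *tpsA* for trehalose synthesis at 1.38 and *treA* for trehalose breakdown at 1.05, while *ivoA*, for conidiophore pigment, was at 0.39 and not called. With means of 0.653 RPKM with BaP and 0.251 RPKM with DMSO, *ivoA* depends on the added 1 RPKM and was called higher at 1.08 with 0.1 added. At 24 h the list had 1 product, *ivoB*, which was called lower at -1.22, and at -1.36 without D26. At 48 h 3 products were listed, of which *cetJ* at 3.04 and *conF* at 1.95 were called higher and *yA* at 0.94 was not. Called higher were 40.9% of all genes listed at 48 h.

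The summed level of the listed products was 1845 to 2738 RPKM in the BaP libraries at 6 h, against 783 to 941 RPKM in the DMSO libraries, and no listed product was at 0 in any library. Most of this sum came from *conF*, *cetJ* and *catA*, which lie close together on chromosome III (3291433 to 3298750). Their means at 6 h were 380, 781 and 632 RPKM with BaP, against 180, 287 and 193 RPKM with DMSO. At 48 h the sum was 972 to 1308 RPKM in the BaP libraries, against 118 to 603 RPKM in the DMSO libraries. Most of it came from *cetJ* and *conF*, the only products called higher at 48 h with all libraries. D33 was again the highest DMSO library, with 237 RPKM for *cetJ*, against 35.2 and 53.3 RPKM in D31 and D32. Without D33, *cetJ* was at 3.85 and *conF* at 2.67, and *yA* was called at 1.15. The part of conidia or conidiophores in the levels of the genes of the stretch was not tested, and of these genes only SpoC1-C1C carries the SpoC1 name.

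No regulator was called higher at any time with all libraries in the fit. The list holds genes that drive conidiation and at least *nsdD* as a repressor of it, so their directions are not read together. The defining regulators *brlA* and *wetA* were in no table, and *abaA*, at 6 h, had 1.08, 0.636 and 0.479 RPKM with BaP, against 1.87, 1.18 and 2.09 RPKM with DMSO, a log2 fold change of -0.65 that was not called. At these levels the value depends on the added 1 RPKM, and with 0.1 added *abaA* was called lower at -1.15. At 24 h 4 regulators were listed and all 4 were called lower, where 32.6% of the listed genes were called lower: *nsdD*, a repressor of conidiation and activator of sexual development, at -1.98, the velvet genes *veA* at -1.51 and *velC* at -1.24, and *laeA*, a regulator of secondary metabolism, at -1.05. At 48 h *nsdD* at -2.54, *laeA* at -1.78 and *veA* at -1.58 were called lower, where 43.0% of the listed genes were called lower, and *velB*, another velvet gene, was at 0.93 and not called. At 48 h without D33 *velB* was called at 1.15, and the 3 calls to lower levels held. The 4 calls to lower levels at 24 h held without D26. Genes whose description mentions conidia, spores or sporulation, a list that includes SpoC1-C1C, had 17 of 20 called higher and none lower at 6 h, 6 of 12 higher and 5 lower at 24 h, and 6 of 19 higher and 10 lower at 48 h. Among all listed genes 63.6%, 41.5% and 40.9% were called higher at 6, 24 and 48 h.

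**Figure D4:**
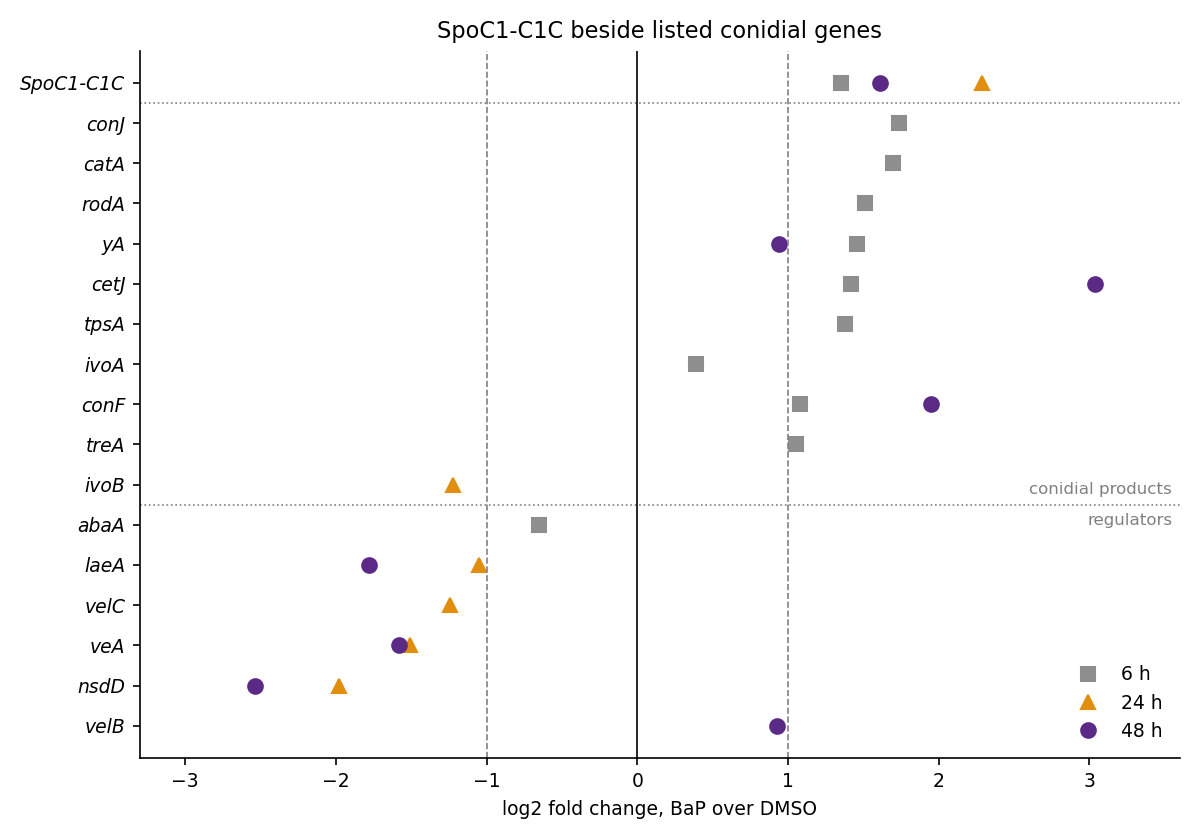
Log2 fold change of BaP over DMSO (horizontal axis, on the log2(RPKM + 1) scale) for SpoC1-C1C in the top row, the 10 listed conidial products and the 6 listed regulators, with squares for 6 h, triangles for 24 h and circles for 48 h. Dashed lines mark log2 fold changes of 1 and -1. The products lie to the right at 6 h, and *nsdD*, *veA*, *velC* and *laeA* lie to the left at 24 or 48 h.

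The genes most like SpoC1-C1C were sought among 195 genes outside the stretch that all 3 tables list, by the Pearson correlation of log2(RPKM + 1) over the 18 libraries. The closest were AN6571, an ortholog of mannosyltransferases, with r = 0.966, *gfdB*, a glycerol 3-phosphate dehydrogenase gene, with r = 0.964, and AN6633, of unknown function and induced by nitrate, with r = 0.962. All 3 lie on chromosome I, and AN6633, at 2683624 to 2684651, lies close to the conidial product gene *yA*, at 2686883 to 2689066. Within the stretch, AN5083 had r = 0.946 and AN5088 r = 0.944. The libraries share treatments, times and the tables' selection of genes, so these values are a description. At 24 h *gfdB* had 123, 105 and 110 RPKM with BaP, against 20.7, 86.2 and 3.05 RPKM with DMSO, which places D26 high and D27 low as in SpoC1-C1C. Most listed genes higher with BaP at 24 h shared this order, with D26 the highest DMSO library for 79.8% and D27 the lowest for 78.5%.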

How the data were processed

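Transcripts of BaP-treated and DMSO-treated hyphae at 6, 24 and 48 h were analysed, and 3 samples taken before treatment were left out. FastQC, Subread, featureCounts, Cufflinks and limma are named in the submitters' processing notes, and the genome build is not given in the sources used here. The authors deposited per-library values for the genes they kept as differentially expressed, without a unit. They are read here as RPKM, because the gap between the authors' deposited mean expression on the log2 scale and the mean log2 value followed gene length (r = 0.972, 0.965 and 0.973 across 591, 1247 and 1355 genes at 6, 24 and 48 h, which are not independent replicates) and low values stepped by whole reads. The authors' fold changes and p-values were not used. Library sizes are the smallest values, within the range searched, that make most of these steps whole (tolerance 0.03 reads). That range ended below the number of reads for each sample that the study reports.

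Each time point was fitted alone over its listed genes on the log2(RPKM + 1) scale by limma 3.58.1 (R 4.3.3), two-sided, with Benjamini-Hochberg adjustment over the listed genes. The genes had been selected on the same libraries, so adjusted p-values are too small and give no independent evidence. P-values set the difference between treatments against the spread between the sampled cultures, with variances partly pooled over the listed genes. The fit was tested on simulated data with independent noise, no library standing apart and no selection of genes. That test therefore does not cover these features of the real data. Alternatives were an added 0.1 RPKM, a mean of at least 1 RPKM, each library left out, library weights, a variance trend, adjustment over all RefSeq genes and, at 48 h, rescaled libraries and ratios of means. The 9 members and the gene lists were chosen with earlier results of these data known. Named genes are the 9 members, the 3 nearest listed genes on each side (only 1 toward the chromosome end), AN5090, all listed conidial genes and the 3 genes outside the stretch with the highest correlation with SpoC1-C1C. AN5090 was added after its values were seen. Gene names and gene order come from RefSeq assembly ASM1142v1. Sequences were not used here.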

Additional observations from a re-analysis of the deposited data

How the results depend on the processing

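At 6 h, adding 0.1 RPKM, the filter on low values, a variance trend and adjustment over RefSeq genes each left 3 of 3 genes called, library weights left 2, and leaving out a library left 2 to 3. At 24 h the first 3 of these and library weights left 6 of 6 genes called, leaving out a library left 0 to 6, and adjustment over RefSeq genes, chosen after seeing the data, left 0 (limma, with 6 at an unadjusted p under 0.05). At 48 h the median log2 fold change was 1.65 with 0.1 RPKM added, 1.61 with the filter, 1.59 with rescaled libraries, 1.5 from ratios of means and 1.29 to 2.11 with a library left out. For AN10630 it was 1.64 from ratios of means. No direction was reversed. Adjustment over the number of genes the authors tested was not run, since that number stands only in their p-value columns. No paired analysis was possible because the value columns carry no replicate numbers. Levels of AN10630 rest on 4 to 34 reads per library, which limits its fold changes. Genes missing from a table have no value, so an unchanged gene and one not measured cannot be told apart.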
